A study of Drosophila melanogaster with 82 samples.

Results

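The gene mio (missing oocyte, CG7074) was followed in translating messenger RNA of 7 tissues of adult female fruit flies (Drosophila melanogaster) kept on restricted or rich food. It lies on chromosome arm 2L and was taken as the 8 array probes whose names start with its transcript identifier, FBtr0077835, out of 132998 probes for 16637 transcripts. The name was paired with the transcript through a gene table of assembly Release 6 plus ISO1 MT, in which mio is protein coding with 1 RefSeq transcript. In that table the word mio is also listed as a synonym of a different gene, Mondo, which was not analysed here.

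The protein Mio is a subunit of GATOR2, a complex on the lysosomal surface. GATOR2 counteracts GATOR1, a complex that switches off the growth kinase complex TORC1 through the Rag GTPases when amino acids are scarce. In the fly, loss of mio is known for failed growth of the ovary and for oocytes that turn into nurse cells, and Wdr24 encodes another subunit of the same complex.

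The 82 samples were pools of 13-day-old females that had spent 10 days on DR food (0.5% yeast extract) or AL food (5% yeast extract), with 6 pools per tissue and food, apart from 5 in heart AL and in neuron AL. About 100 flies went into a pool, and 200 into each neuron pool. All lines carried UAS-RpL13A-His6FLAG, a tagged ribosomal protein switched on by a GAL4 driver, and ribosomes with their messages were pulled down from homogenates of whole flies. DR and AL pools of a tissue had the same genotype, and no group lacked the transgene. The fat body line was +/+; S106-GS-GAL4/+; UAS-RpL13A-His6FLAG/+. The germ line, gut and heart lines had NGT-GAL4/+, MYOIA-GAL4/+ and HAND4.2-GAL4/+ in place of S106-GS-GAL4/+. The neuron line was C155-GAL4/+; +/+; UAS-RpL13A-His6FLAG/+. The muscle and tubule (Malpighian tubule) lines were +/+; +/+; MHC-GAL4/UAS-RpL13A-His6FLAG and +/+; +/+; C42-GAL4/UAS-RpL13A-His6FLAG. Each tissue is thus known only by its driver: none of the 28 marker genes listed for the tissues could be paired with a transcript, so the tissue names could not be checked against defining markers.

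Every array gave a probe intensity, taken here to log2. The level of mio is the mean of its 8 probes, and a difference of 1 on this scale is a doubling. The 95th percentile of 4100 random-sequence control probes, used as background, lay between 6.16 and 9.26. In all 82 pools mio lay above it, by 2.76 to 5.69. Some pools stood apart from their group over all transcripts: the lowest median correlation of a pool with its group was 0.852 (germ line DR pool 6), followed by 0.942 for muscle DR pool 4, 0.945 for neuron DR pool 5 and 0.968 for tubule AL pool 4. Nothing in the labels marks a scan, slide or extraction batch. In pulled-down RNA of this kind, fewer tagged cells, less message per cell and less ribosome loading cannot be told apart.

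The study asks whether the response to food differs between tissues. For mio it did: its level rose on DR food in the fat body and fell in neurons, and in no other tissue past the threshold. The fall in neurons was close to the median change of transcripts about as bright there. A change below is the DR mean minus the AL mean of the log2 values, with its standard error (SE), and an adjusted p below 0.05 in a limma fit over all transcripts counts as called. The 7 changes of mio differed among themselves (moderated F = 9.48, limma adjusted p = 3.14e-07), in a fit where 90% of all transcripts passed the same test. Their mean was 0.07 ± 0.05 and was not called (limma adjusted p = 0.162), where 80.5% of transcripts were.

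In the fat body, the fly's organ of nutrient storage, mio lay at 11.78 to 12.07 with a median of 11.92 in the 6 DR pools, against 10.83 to 11.32 with a median of 11.13 in the 6 AL pools. Every DR pool was above every AL pool. On the linear scale the mean intensity was 3889 in DR and 2216 in AL. The change was 0.82 ± 0.12 (95% interval 0.57 to 1.06), or 1.76-fold, with a limma adjusted p of 7.20e-08 and an exact permutation p of 0.00216, the smallest that 6 against 6 pools can give. In this tissue 20.3% of transcripts were called higher and 15.7% had every DR pool above every AL pool. The median change was 0.02 over all transcripts and 0.04 over transcripts in the same brightness decile as mio, and 5.79% of all transcripts had a higher change than mio.

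Neurons went the other way. There mio lay at 11.26 to 12.02 with a median of 11.78 in the 6 DR pools, against 12.19, 12.20, 12.03, 12.16 and 12.06 in the 5 AL pools. Every DR pool was below every AL pool, and the DR pools spread more widely (SD 0.31 in DR and 0.08 in AL). The change was -0.42 ± 0.13 (95% interval -0.68 to -0.17; limma adjusted p = 0.00265; exact permutation p = 0.0152), and the AL mean was 1.34-fold above the DR mean. Among all transcripts 37.6% were called lower in neuron DR and 28% had every DR pool below every AL pool. The median change of transcripts in the same brightness decile was -0.45, so the fall of mio lay close to the middle of transcripts about as bright. Of the transcripts in that decile, 56% were called lower. The 462 transcripts that lead in neurons averaged 11.70 ± 0.33 in neuron DR and 9.31 ± 0.27 in neuron AL (SD over pools). They were chosen on these arrays by the mean of both foods, so a high level on 1 food alone could bring a transcript in. The choice can thus have a part in their difference between the foods. Groups leading in other tissues, chosen the same way, moved as well. The heart-leading transcripts averaged 9.84 ± 0.26 in neuron DR and 8.70 ± 0.13 in neuron AL, the muscle-leading ones 10.58 ± 0.13 and 9.86 ± 0.04, and the tubule-leading ones 8.35 ± 0.12 and 7.98 ± 0.05. The germ-line-leading ones averaged 8.41 ± 0.31 in neuron DR and 8.94 ± 0.07 in neuron AL, while the fat-body-leading (9.04 ± 0.08 and 8.87 ± 0.02) and gut-leading ones (8.38 ± 0.16 and 8.22 ± 0.05) differed by less. The part of these differences in the fall of mio was not tested.

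In the tubule, the fly's renal organ, the pools separated but the call was not made. The 6 DR pools lay at 11.48 to 11.74 with a median of 11.53, against 11.10 to 11.40 with a median of 11.39 in the 6 AL pools. Every DR pool was above every AL pool, as for 17% of transcripts, and the exact permutation p was 0.00216. The change was 0.22 ± 0.12 (95% interval -0.02 to 0.46), with a limma adjusted p of 0.154 in the fit where the 14 groups share 1 spread and where 20.4% of transcripts were called higher. With the tubule arrays fitted alone the change had a limma adjusted p of 0.03.

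The germ line, where mio has its best known role, gave no called change. The 6 DR pools lay at 11.99 to 12.53 with a median of 12.14, against 12.11 to 12.43 with a median of 12.24 in the 6 AL pools, and the groups overlapped. The change was -0.06 ± 0.12 (95% interval -0.30 to 0.19; limma adjusted p = 0.689), in a tissue where 71% of transcripts were called. Transcripts in the same brightness decile had a median change of -0.43. Weighting of arrays gave a change of 0.13 that was called (limma adjusted p = 0.018), from weights whose estimation did not converge. Germ line DR pool 3 had a weight of 71.7 and every other germ line DR pool 0.04 to 0.59. The weighted DR mean thus rests almost wholly on 1 pool.

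Gut and heart gave the smallest changes. In the gut, mio lay at 11.53 to 11.72 with a median of 11.57 in DR, against 11.46 to 11.61 with a median of 11.57 in AL. In the heart it lay at 11.00 to 11.13 with a median of 11.07 in DR, against 10.96, 11.15, 11.07, 10.99 and 11.09 in AL. Both pairs of groups overlapped. The changes were 0.03 ± 0.12 in gut (95% interval -0.21 to 0.28; limma adjusted p = 0.865) and 0.01 ± 0.13 in heart (-0.25 to 0.26; limma adjusted p = 0.968), where 35.9% and 52.2% of transcripts were called.

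In muscle the DR pools were uneven, and no change was called. They lay at 10.77, 10.78, 11.64, 12.25, 11.56 and 10.97, against 11.23 to 11.62 with a median of 11.44 in the 6 AL pools. Pools 1, 2 and 6 of muscle DR lay below every AL pool, and pools 3 and 4 lay above every AL pool. The change was -0.10 ± 0.12 (95% interval -0.35 to 0.14; limma adjusted p = 0.475), where 55.1% of transcripts were called, and without DR pool 4 it was -0.29 with a limma adjusted p of 0.0171. The 493 transcripts that lead in the germ line, chosen on these arrays, averaged 9.42, 9.25, 8.92, 8.73, 9.08 and 9.25 in the same 6 DR pools. They were highest in the 3 pools where mio was lowest. The fat-body-, muscle- and tubule-leading groups were lowest in those 3 pools, and the gut-, heart- and neuron-leading groups did not split this way. The 95th percentile of control probes was lowest there too, at 6.17, 6.36, 6.99, 7.54, 6.42 and 6.32 in pools 1 to 6. The part of these differences in the spread of mio was not tested.

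**Figure D1:**
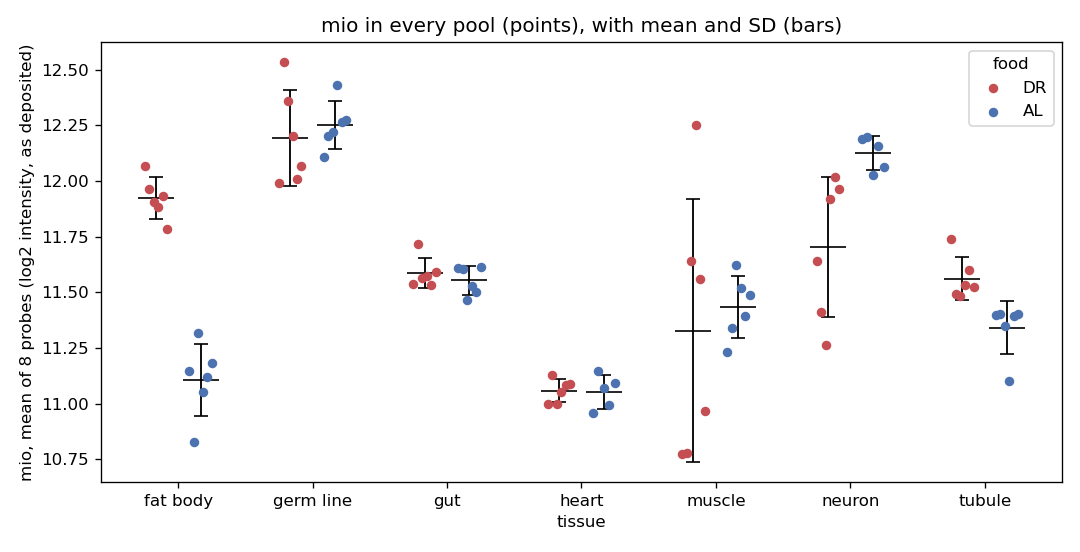
Level of mio (mean of 8 probes, log2 intensity as deposited) in each of the 82 pools, by tissue, with DR in red on the left and AL in blue on the right; bars give the mean and SD of a group. The fat body DR pools sit at 11.78 to 12.07, above all AL pools at 10.83 to 11.32, the neuron DR pools sit below the AL pools, and the muscle DR pools lie between 10.77 and 12.25.

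Of the 21 pairs of tissues, 9 had changes of mio that differed from each other, against a median of 34% of all transcripts called per pair. All 6 pairs with the fat body were among them. The change in fat body exceeded that in neuron by 1.24 (60% of transcripts called), in muscle by 0.92 (32.9%), in germ line by 0.87 (49.6%), in heart by 0.81 (34%), in gut by 0.78 (14.1%) and in tubule by 0.60 (20.3%), with limma adjusted p between 8.68e-09 and 0.00824. Of the 15 pairs without the fat body, 3 were called, each with neuron: gut minus neuron was 0.46 (limma adjusted p = 0.023), heart minus neuron 0.43 (limma adjusted p = 0.0331) and neuron minus tubule -0.65 (limma adjusted p = 0.00157). In those pairs 57.1%, 64% and 50.6% of transcripts were called.

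The other 12 pairs had no call for mio. Germ line minus gut was -0.09 (37.1% of transcripts called), minus heart -0.06 (18.1%), minus muscle 0.05 (15.5%), minus neuron 0.37 (61.8%) and minus tubule -0.28 (46.4%). Gut minus heart was 0.03 (23.8%), minus muscle 0.14 (24.5%) and minus tubule -0.19 (14.4%). Heart minus muscle was 0.11 (18.4%) and minus tubule -0.21 (34.6%), and muscle minus neuron was 0.32 (58.7%) and minus tubule -0.33 (30.4%). The limma adjusted p of these pairs ran between 0.0641 and 0.93.

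The rise in the fat body also moved mio within the order of the tissues. To set levels of different tissues side by side, the arrays were scaled to 1 common distribution (quantile normalization over all 82 arrays), and levels below are on that scale. The highest of the 14 group means was fat body DR with 12.07 ± 0.08 (SD), followed by germ line AL with 12.01 ± 0.13, germ line DR with 11.89 ± 0.27, gut DR with 11.63 ± 0.06, gut AL with 11.60 ± 0.06 and neuron AL with 11.60 ± 0.08. Next came heart AL with 11.54 ± 0.08, muscle AL with 11.53 ± 0.15, heart DR with 11.52 ± 0.06, tubule DR with 11.51 ± 0.09, muscle DR with 11.37 ± 0.65, fat body AL with 11.37 ± 0.13, tubule AL with 11.31 ± 0.11 and neuron DR with 11.19 ± 0.31. Each neighbour in this order overlapped the next in its pools, and 0 of the 13 gaps exceeded the larger SD of the neighbouring pair, so the order of neighbours is not resolved. Fat body took place 1 on DR food and place 12 on AL food.

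**Figure D2:**
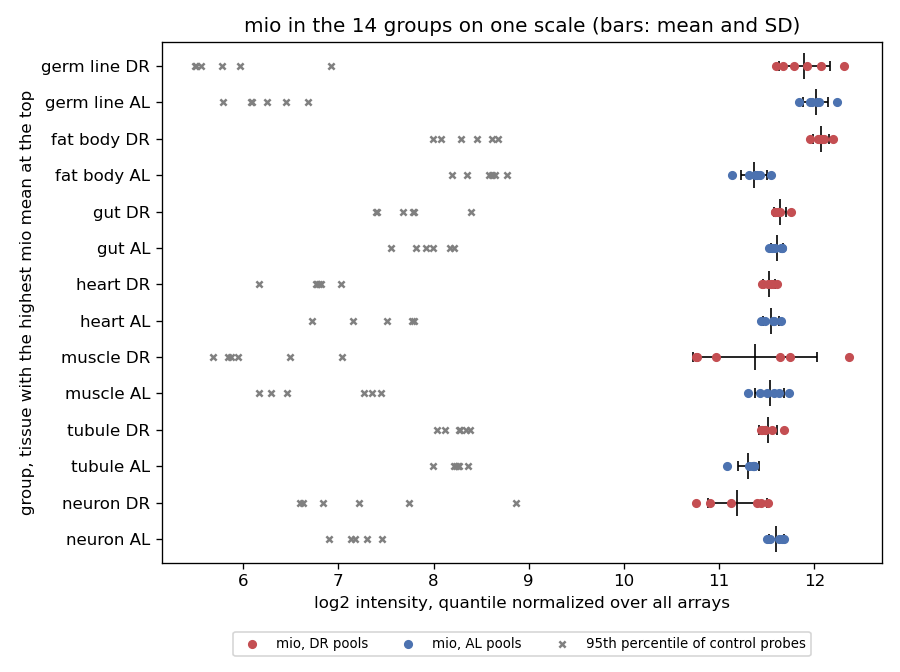
Level of mio in the 14 groups on a common scale (log2 intensity after quantile normalization over all arrays), with DR above AL within a tissue; circles are pools, bars the mean and SD, and crosses the 95th percentile of control probes in each pool. All circles lie to the right of the crosses, and the tissue means span 0.56 on the log2 scale.

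Averaged over both foods, mio was highest in the germ line with 11.95, then fat body 11.72, gut 11.62, heart 11.53, muscle 11.45, tubule 11.41 and neuron 11.40. The span of 0.56, or 1.47-fold, compares with 1.15 on the log2 scale for Wdr24. The tissue means differed (moderated F = 9.14, limma adjusted p = 2.18e-07), where 99.5% of transcripts did, and 11 of 21 pairs were called against a median of 74.5% of transcripts per pair. Fat body minus germ line was -0.24 (86.4% of transcripts called), and germ line was above gut by 0.33 (86%), heart by 0.42 (76.7%), muscle by 0.50 (66.9%), neuron by 0.56 (80.7%) and tubule by 0.54 (87.3%). Fat body was above muscle by 0.27 (82.6%), neuron by 0.32 (72.2%) and tubule by 0.31 (58.6%), and gut was above neuron by 0.22 (67.9%) and tubule by 0.21 (59.6%). The pairs without a call for mio were fat body with gut (51%) and heart (74.5%), gut with heart (71.5%) and muscle (82%), heart with muscle (69.2%), neuron (64.6%) and tubule (73.6%), muscle with neuron (78.2%) and tubule (84.1%), and neuron with tubule (75%). All 11 called pairs thus hold germ line, fat body or gut as the higher tissue on this scale. As deposited, the neuron mean of mio was 11.91, below germ line (12.22) but above gut (11.57) and fat body (11.51). The transcript is in none of the tissue-leading groups, whose members exceed every other tissue at least by 1 on the log2 scale in the mean of both foods.

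Split by food, fat body changed sides. On DR food its level was above gut by 0.43 (36.1% of transcripts called), heart by 0.55 (67.8%), muscle by 0.70 (75.1%), neuron by 0.88 (57.8%) and tubule by 0.56 (46%), all called, with no call against germ line (0.18, limma adjusted p = 0.336; 82%). On AL food the fat body minus another tissue was -0.65 for germ line (82.2%), -0.24 for gut (48.9%), -0.18 for heart (64.4%), -0.16 for muscle (77.5%) and -0.24 for neuron (75.4%), all called, with no call against tubule (0.06, limma adjusted p = 0.523; 51.1%). These positions depend on the scaling: on the deposited scale the fat body was called higher than 2 of the other 6 tissues on DR food and lower than 5 on AL food. With arrays centred on their medians it was called higher than all 6 on DR food and higher than 3 on AL food, where it was then called lower than none. The order of germ line likewise moved, with AL at place 1 as deposited and place 7 after centring. Neuron AL took place 3 as deposited, 4 after centring and 6 on the common scale, and neuron DR took places 5, 14 and 14.

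The 8 probes carry numbers between 1205 and 2513 in their names, and they were not alike in brightness. Averaged over groups they lay at 11.43 (P01205), 12.50 (P01299), 11.68 (P01524), 10.30 (P01765), 9.99 (P02090), 12.38 (P02177), 12.05 (P02443) and 12.36 (P02513). The dimmest, P01765 and P02090, were still above the background percentile in 82 and 81 of the 82 pools. Of the 56 pairs of probe and tissue, 19 were called for food, 10 higher and 9 lower in DR, compared with 37.3% of pairs over all probes of the array.

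In the fat body all 8 probes rose, each with every DR pool above every AL pool, by 0.57 (P02177) to 1.13 (P02443), where 28.5% of all probes were called. Without fat body AL pool 2, 7 of the 8 were called, and P02090 was not (0.56, limma adjusted p = 0.0531). For probe P02443, fat body AL pool 2 lay at 8.97 and the next lowest AL pool at 11.25, and without this probe the change of the mio mean was 0.77. In the tubule all 8 probes lay above 0, by 0.05 to 0.37, and P02513 was called (0.37, limma adjusted p = 0.0183; 28.7% of probes called), a call lost without tubule AL pool 4. In the gut the probes ran between -0.18 and 0.27 and none was called by limma, with 0 also at an unadjusted p below 0.05 (24.4% of probes called).

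In neurons all 8 probes lay below 0 and 4 were called (56.9% of probes): P01524 by -0.52, P01765 by -0.73, P02090 by -1.05 and P02177 by -0.56. The other 4 ran between -0.24 and -0.06. In the germ line the probes disagreed: P02177 rose by 0.34 (limma adjusted p = 0.0192), while P01765 fell by 0.77 and P02090 fell by 0.58 (limma adjusted p = 0.00581 and 0.0208; 48.5% of probes called). The P02177 call was lost without germ line DR pool 1 or DR pool 2, and the others were kept without any 1 pool. The germ line mean of -0.06 therefore averages probes that moved in opposite directions.

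The same pair of probes stood out in heart and muscle. In the heart P01765 fell by 0.72 (limma adjusted p = 0.0179; 37.5% of probes called), P02090 was at -0.52 without a call, and the other 6 ran between 0.08 and 0.42. Without heart AL pool 2 the P01765 change was -0.64 with a limma adjusted p of 0.0537, and P02090 was called without DR pool 2 or 5 (limma adjusted p = 0.048 and 0.044). In muscle P01765 changed by -0.63 and P02090 by -0.67 (limma adjusted p = 0.0302 and 0.0101; 36.6% of probes called), and neither was called without muscle DR pool 1, 2 or 6. The DR and AL pools overlapped for both probes. The SD was 1.12 in DR and 0.22 in AL for P01765, and 1.03 and 0.23 for P02090. These p-values rest on a spread shared by the 14 groups and not on that of muscle. P01765 also lost its call without AL pool 3, 4 or 5 (limma adjusted p between 0.0538 and 0.0635). The other 6 muscle probes ran between -0.08 and 0.33.

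**Figure D3:**
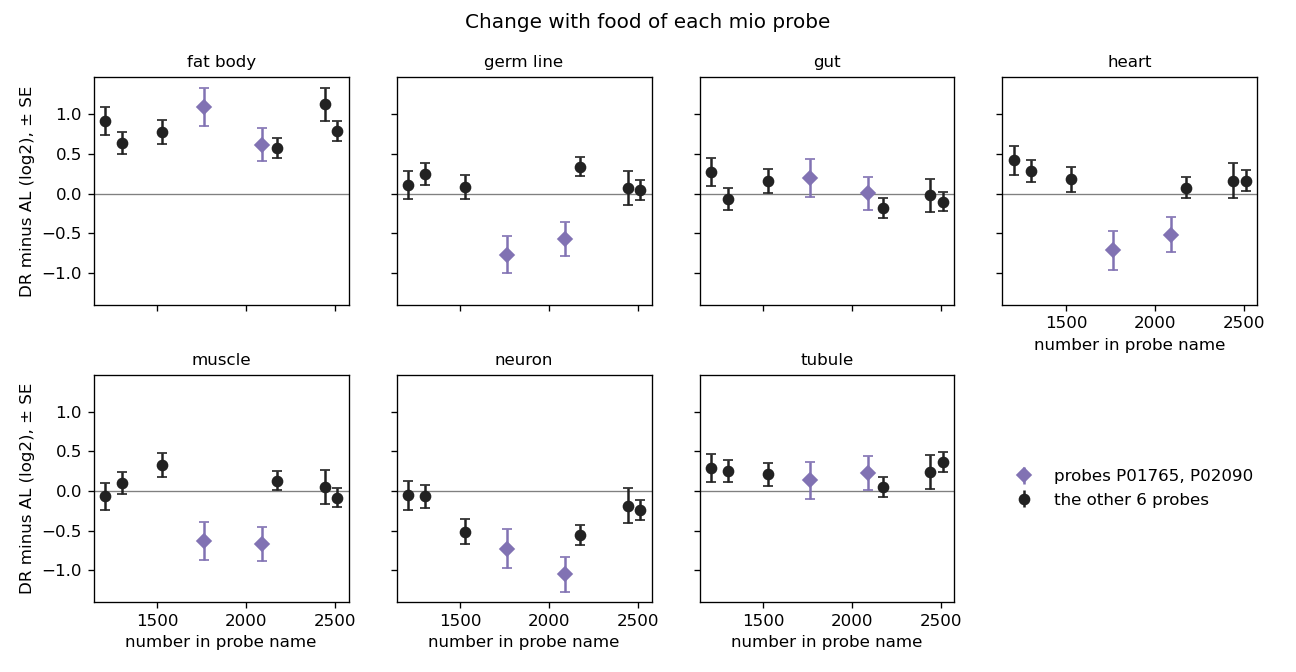
DR minus AL change (log2, with SE) of each mio probe in each tissue, against the number in the probe's name; purple diamonds are P01765 and P02090, black circles the other 6 probes. All 8 probes lie above 0 in fat body and tubule and below 0 in neuron, while the purple pair lies below the other 6 in germ line, heart, muscle and neuron.

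Whether a probe changed differently from the transcript's other probes was tested with limma's diffSplice, chosen after the probe values were seen. Of the 14 tests of P01765 and P02090, 7 were called, and of the 42 tests of the other 6 probes 0 were called, with 5 at an unadjusted p below 0.05 and 1 called after quantile normalization over all arrays. Over the whole array 6.12% of such tests were called. P01765 and P02090 changed by -0.82 and -0.59 relative to the other probes in germ line, by -0.83 and -0.60 in heart, and by -0.60 and -0.64 in muscle. In neurons P02090 was called with -0.72 and P01765 was not, with -0.35 (limma adjusted p = 0.353). No mio probe was called in fat body, gut or tubule, and none had an unadjusted p below 0.05 there, where 1.38%, 1.29% and 1.26% of probes were, against 14.6% in germ line, 11.5% in heart, 5.55% in muscle and 7.19% in neuron.

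Relative to the other probes, dim probes of other transcripts on the whole moved in the same direction, most in germ line, heart and muscle. Over 16616 transcripts with 8 probes, the change of the 2 dimmest minus that of the other 6 was taken. Its median was -0.32 in germ line, -0.36 in heart and -0.26 in muscle. This difference was below 0 in 81.5%, 83.1% and 78.2% of transcripts. For mio it was -0.82, -0.83 and -0.73 in these tissues, and 11.6%, 17.9% and 11.4% of transcripts were lower still. In neurons the difference was -0.62 for mio against a smaller median of -0.12, with 62% of transcripts below 0 and 13.9% lower than mio. In fat body the difference was 0.05 for mio and -0.04 in the median. The 95th percentile of control probes, over AL and then DR pools, was 6.80 to 7.89 and 6.16 to 7.13 in heart. It was 6.65 to 7.94 and 6.17 to 7.54 in muscle, and 7.27 to 8.37 and 6.71 to 8.58 in germ line. In neuron it was 7.10 to 7.74 and 6.75 to 9.26, and in fat body 7.15 to 7.84 and 6.93 to 7.73. In gut it was 6.99 to 7.77 and 6.81 to 7.98, and in tubule 7.30 to 7.75 and 7.35 to 7.79. The parts of probe brightness and of background in the mio values were not tested.

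With both probes left out, a choice made after the probe values were seen, the mean of the other 6 probes changed by 0.80 in fat body (limma adjusted p = 1.35e-08) and by -0.27 in neuron (limma adjusted p = 0.0398), where the pools then overlapped. The other changes were 0.15 in germ line, 0.01 in gut, 0.22 in heart, 0.08 in muscle and 0.23 in tubule, none called (limma adjusted p between 0.0929 and 0.955). In heart and tubule every DR pool then lay above every AL pool. The mean of the 7 changes became 0.17 and was called (limma adjusted p = 0.000231).

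Of the 22 genes listed for the GATOR and TORC1 pathway, 2 could be paired with a transcript, mio and Wdr24 (FBtr0085543, also 8 probes). The other 20 pathway genes were not analysed here. Wdr24 rose in the fat body too: it lay at 11.14 to 11.45 with a median of 11.30 in the 6 DR pools, against 10.74 to 11.02 with a median of 10.88 in the 6 AL pools. No pools overlapped, and the change was 0.40 ± 0.13 (limma adjusted p = 0.00653), which was not called on the later 4 probes alone (0.36, limma adjusted p = 0.052). In fat body 22.5% of transcripts in the brightness decile of Wdr24 were called higher, and 17.5% of all transcripts had a higher change.

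In neurons Wdr24 lay at 11.60 to 12.79 with a median of 12.03 in DR, against 12.89, 12.81, 12.86, 12.83 and 12.91 in AL. All DR pools were below all AL pools, and the change was -0.79 ± 0.13 (limma adjusted p = 1.63e-07). Transcripts in its brightness decile had a median change of -0.40 in neurons, and 56.8% of them were called lower. Wdr24 was also called lower in germ line (-0.29, limma adjusted p = 0.0307) and muscle (-0.35, limma adjusted p = 0.0147), where 36.8% and 27.3% of transcripts were called lower. The germ line call was lost on leaving out any 1 of AL pools 2 and 4 and DR pools 4 and 5, and the muscle call on leaving out any 1 of DR pools 1, 2 and 6. The germ line call was also lost with cyclic loess (-0.22, limma adjusted p = 0.104) and on the 4 of its 8 probes with the lower position numbers (-0.09, limma adjusted p = 0.495). The muscle call was lost with muscle arrays alone (limma adjusted p = 0.0952), in the exact permutation test (p = 0.108) and on those 4 probes (-0.20, limma adjusted p = 0.148). In muscle its level was 11.30 to 12.43 with a median of 11.77 in DR, against 11.98 to 12.28 with a median of 12.20 in AL, and the lowest DR values were those of pools 1, 2 and 6 (11.30, 11.49 and 11.54), as for mio. In gut, heart and tubule the changes were -0.22, -0.14 and -0.13, none called.

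**Figure D4:**
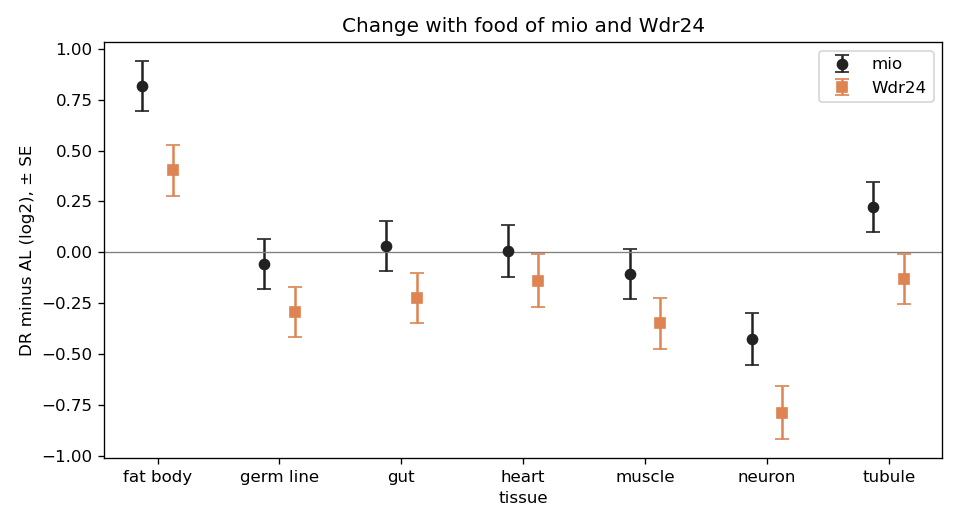
DR minus AL change (log2, with SE from limma) of mio (black circles) and Wdr24 (orange squares) in each tissue. The changes of mio lie above those of Wdr24 in all 7 tissues, and both genes have their highest value in fat body (0.82 and 0.40) and their lowest in neuron (-0.42 and -0.79).

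The change of mio exceeded that of Wdr24 in all 7 tissues, by 0.15 to 0.41. The pool-wise difference between the 2 genes, compared after their values were seen, passed an exact permutation test, adjusted over the 7 tissues, in 5 of them: fat body 0.41 (adjusted p = 0.0152), germ line 0.24 (0.0303), muscle 0.24 (0.0152), neuron 0.36 (0.0333) and tubule 0.35 (0.0152). How often the changes of 2 other transcripts differ this way is not given here, so the count does not set these 2 genes apart. Gut (0.26, exact permutation test, adjusted p = 0.0996) and heart (0.15, adjusted p = 0.0884) did not pass, although heart passed without AL pool 4 (0.18, adjusted p = 0.0444) or AL pool 5 (0.19, adjusted p = 0.0389). The tubule value was 0.20 without AL pool 4, in which mio was low (11.10) and Wdr24 high (11.95), with an adjusted p of 0.0152 by the exact permutation test. The neuron call was lost without any 1 of 6 pools (AL pools 3 and 5 and DR pools 1, 3, 4 and 6), with adjusted p of 0.06 to 0.0667 by the exact permutation test.

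By pattern over the 7 changes, Wdr24 ranked 14 among 16636 other transcripts in likeness to mio, with a Pearson r of 0.97 over 7 tissues. The highest were the unnamed FBtr0084635 (r = 0.99) and FBtr0070310 (r = 0.99), the median was 0.02, and 194 transcripts had an r above 0.9. The changes of all transcripts come from the same arrays. Pearson r ignores the mean and the scale of the changes, so it describes their pattern over tissues and not their size. FBtr0084635 had changes of 0.65 in fat body and 0.05 in neuron, and FBtr0070310 had -0.20 and -1.51. Without the fat body, the r of Wdr24 was 0.95 over 6 tissues and its rank 119.

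Over the 14 group means on the common scale the likeness was looser. The highest r was 0.85, for FBtr0079667 and, at 0.847, FBtr0079664, against a median of 0.03. Among transcripts with a symbol, LanA, which encodes a laminin chain of the basement membrane, was within the highest 1% (r = 0.69, rank 59), and its change with food was 1.39 in fat body and -1.12 in neuron. Wdr24 had an r of 0.33 and rank 2545 by this measure. Its level was 11.53 in fat body DR and 11.19 in fat body AL, while its highest group mean was germ line AL with 12.45.

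Levels of the tissue-leading groups also differed between the foods in fat body arrays. The 242 gut-leading transcripts, chosen on these arrays, averaged 10.11 ± 0.21 in fat body DR and 11.14 ± 0.21 in fat body AL (SD over 6 pools). The 422 fat-body-leading ones averaged 12.70 ± 0.13 in DR and 12.41 ± 0.12 in AL. As in neurons, the choice by the mean of both foods can have a part in the difference of the fat-body-leading group. The neuron-leading transcripts averaged 7.95 ± 0.04 in fat body DR and 7.53 ± 0.04 in fat body AL, the muscle-leading ones 9.98 ± 0.03 and 9.62 ± 0.01, and the heart-leading ones 8.91 ± 0.08 and 8.65 ± 0.09. The germ-line-leading (8.17 ± 0.17 and 8.10 ± 0.06) and tubule-leading ones (8.55 ± 0.05 and 8.48 ± 0.06) differed by less. Of the 6 groups leading in other tissues, the gut-leading one alone was thus lower in fat body DR. In gut arrays themselves mio lay at 11.63 on DR and 11.60 on AL food on the common scale. The part of these differences in the rise of mio was not tested.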

How the data were processed

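The authors amplified the RNA of each pulldown, per the labels' protocols, labelled it with Cy3 for single-colour NimbleGen arrays, and randomized pulldown, amplification and labelling over the groups. What was deposited is 1 linear intensity per probe and array. How the values were normalized is not given in the sources used here, and neither is the release of the transcript annotation. Within a tissue, the sorted log2 values of the deposited arrays differ by at most 0.0379, as after quantile normalization within tissues.

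Intensities were taken to log2 and averaged over the probes of a transcript, with no filter. A limma 3.58.1 model (R 4.3.3, with version 1.17.8 of the data.table package) of 14 group means, with 68 residual degrees of freedom, gave two-sided moderated tests, adjusted by Benjamini-Hochberg over 16637 transcripts, or over all probes. Food was compared on deposited log2 values and tissues after quantile normalization over all arrays. Exact permutation tests used the pools of a tissue. The fit was checked on simulated data. Pools are separate by their labels, and whether flies of different pools shared vials is not stated, so p-values rest on the spread between pools. In the limma model each transcript has 1 spread shared by the 14 groups, and not that of the tissue compared. The SD of mio ran from 0.05 in heart DR to 0.59 in muscle DR. The number of arrays limits the precision. Levels of 2 genes are not compared, since probes differ in brightness.

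The gene, the lists of pathway and marker genes and the tests were chosen with earlier results of these data known. Genes named are mio, the pathway genes that can be paired with a transcript, the 2 transcripts most like mio by each measure and those with a symbol within the highest 1%. Of all transcripts, 16 could be paired with a single gene. Plots used matplotlib 3.10.9, pandas 2.3.3 and numpy 2.4.6 under Python 3.11.15. Alternatives were another scaling, probe summary, filter, subsets of probes, array weighting, single-tissue fits, a replicate block and leaving out each pool.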

Additional observations from a re-analysis of the deposited data

Results flagged for a closer look

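The differences between tissues in the change of mio were picked out by their own tests. The moderated F was 9.48, and the changes in fat body minus those in germ line, gut, heart, muscle, neuron and tubule were 0.87, 0.78, 0.81, 0.92, 1.24 and 0.60. Gut minus neuron was 0.46, heart minus neuron 0.43 and neuron minus tubule -0.65.

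Other values were picked out because 1 pool lay far from the rest of its group. For the mio mean these were gut DR pool 2, at 11.72 with the next at 11.59, and tubule AL pool 4, at 11.10 with the next at 11.35. For Wdr24 they were tubule AL pool 4, at 11.95 above the next at 11.42, and germ line AL pool 5, at 12.41 below the next at 12.60. Tubule AL pool 4 was thus the lowest of its group for mio and the highest for Wdr24.

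Among single mio probes, P02443 was picked out in 4 groups: low in fat body AL pool 2 (8.97, next 11.25), heart DR pool 2 (11.40, next 11.61) and muscle AL pool 1 (11.65, next 11.97), and high in neuron DR pool 5 (13.28, next 12.52). The others were P01299 low in tubule DR pool 4 (12.13, next 12.41), P01524 low in gut AL pool 3 (11.23, next 11.56), P02090 low in muscle AL pool 1 (9.29, next 9.72) and P02177 high in muscle DR pool 4 (12.66, next 12.14). In all, 12 of 140 groups of values were picked out this way, where about 7 would be by chance alone.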

How the results depend on the processing

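The fat body rise (0.70 to 0.85 under 19 settings) and the neuron fall (-0.67 to -0.27) kept direction and call under every setting run, as did both F tests (6.69 to 24.4 for food, 6.22 to 36.7 for level). Array weights, whose estimation did not converge, gave a germ line change of 0.13 (limma adjusted p = 0.018) against -0.06, a called muscle change of -0.23, a called tubule change of 0.16 and 29 called probes, 17 of them higher. The tubule change was also called with tubule arrays alone (0.22, limma adjusted p = 0.03) and with median polish (0.27, limma adjusted p = 0.0415). Its exact permutation p of 0.00216 was below 0.05, but is not adjusted over transcripts. The mean of 7 changes was called with cyclic loess (0.10), median polish (0.11), without P01765 (0.11), without P02090 (0.12) and without both (0.17), the last 3 chosen after seeing the data. Leaving out 1 pool gave 0.76 to 0.86 in fat body, -0.49 to -0.34 in neuron, -0.29 to 0.0060 in muscle and 0.17 to 0.24 in tubule, with 7 to 11 called pairs of tissues for food and 9 to 14 for level. The labels state no pairing of DR and AL pools by number. Of 40 same-numbered pairs 21 correlated above 0.1, in 0 tissues all of them, and 13 matched their own number best. Their r ran from -0.44 to 0.77. No chance level is given for these counts, so they cannot exclude a pairing. With the replicate block, the pairs of tissues called for food numbered 11, the fat body change was 0.82 (limma adjusted p = 1.47e-07), the neuron change -0.48 (limma adjusted p = 0.000656), and no call of a change of mio in a tissue differed. The causes were not tested.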
